A study of Mus musculus with 16 samples.

Results

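The collagen genes of mouse glioblastoma are described here: every gene whose symbol is Col, a number, the letter a and a further number. This rule picked 44 of the 26466 genes measured. By the collagen type in the symbol, 11 encode fibrillar collagen chains (types I, II, III, V, XI, XXIV and XXVII), 6 encode the type IV chains of basement membranes, and 27 encode other collagens. The last class holds 9 fibril-associated collagens, 6 type VI chains, 4 network-forming or anchoring chains, 4 transmembrane collagens, 2 multiplexins and 2 remaining chains. All 44 passed the filter on low values, and the lowest value of any of them in any library was 3 reads.

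Collagens are extracellular proteins whose chains wind into a helix of 3 chains inside the cell, with the help of hydroxylases and chaperones, before they are secreted and crosslinked. Fibrillar collagens give connective tissue its tensile strength, and types II, IX and XI are known together as the fibril collagens of cartilage. Type IV collagen forms the sheet of the basement membrane around blood vessels. Normal brain tissue holds little fibrillar collagen, and most of its collagen lies in vessel walls and the meninges.

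RNA was sequenced from 16 transplanted mouse tumours, 1 library each, of the 2 lineage-based glioblastoma models that the labels call Type 1 and Type 2. Type 1 had 5 Control and 3 TAM depleted tumours, and Type 2 had 4 of each, where TAM stands for tumour associated macrophage. All groups share the transplantation. The transplanted cells and their mutations, the strain, age and sex of the hosts and the way of depletion were not given in the sources used here. Nothing in the labels says that the tumours of a group came from separate cultures or hosts, so p-values measure only the spread between these samples, which may be technical.

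Libraries held 4.21 to 18.3 M reads, where 1 M is 1000000. They fell into 2 sets by the reads of 955 olfactory and vomeronasal receptor genes, which serve smell and are used here as a measure of background. In 9 libraries these genes took 2622 to 8377 reads per M, and in the other 7 they took 93.1 to 763. All 5 Type 1 Control libraries were in the high set and all 3 Type 1 TAM depleted libraries in the low set, so in Type 1 this property and the treatment cannot be told apart. Type 2 was balanced: Control 1 and 3 and TAM depleted 3 and 4 were high, and Control 2 and 4 and TAM depleted 1 and 2 were low. Of 20 TAM markers, 4 fell in Type 2 TAM depleted tumours against Type 2 Control, and all 20 had log2 fold changes below 0 (median -1.39; -0.48 in the high set and -2.10 in the low set). Of all genes tested, 1.24% fell there and 59.4% were below 0. In Type 1, 0 passed and 18 of 20 were below 0 (median -0.36). The summed TAM marker level overlapped between the groups in both models, at 2856 to 5269 normalized counts in Control against 2621 to 5141 in depleted Type 1 tumours, and 6040 to 16071 against 2882 to 6320 in Type 2.

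The type IV genes lie in divergent pairs, and the start regions of the pairs that carry the largest share of the basement membrane result are shown here. In the GENCODE annotation of GRCm38, Col4a1 (chr8:11198423-11312826, minus strand) and Col4a2 (chr8:11312805-11449287, plus strand) run in opposite directions and overlap by their first bases, with start sites 21 bases apart. Col4a6 (chrX:141165403-141474076, minus) and Col4a5 (chrX:141475385-141689234, plus) start 1309 bases apart, and Col4a4 and Col4a3 on chromosome 1 start 72 bases apart. Promoters below run from 250 bases before to 50 bases after the RefSeq start in GRCm38.p6, 5′ to 3′ on the gene's own strand. They are Col4a1 (chr8:11312777-11313076), Col4a2 (chr8:11312555-11312854), Col4a5 (chrX:141475169-141475468) and Col4a6 (chrX:141474027-141474326). Capitals mark the GC box GGGCGG and the CCAAT box CCAAT on either strand.
Col4a1: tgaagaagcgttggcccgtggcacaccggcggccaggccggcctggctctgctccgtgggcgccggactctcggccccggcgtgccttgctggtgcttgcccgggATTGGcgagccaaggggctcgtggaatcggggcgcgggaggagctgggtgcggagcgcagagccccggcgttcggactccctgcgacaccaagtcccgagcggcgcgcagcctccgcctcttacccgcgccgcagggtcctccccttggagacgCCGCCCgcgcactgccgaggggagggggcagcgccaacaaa
Col4a2: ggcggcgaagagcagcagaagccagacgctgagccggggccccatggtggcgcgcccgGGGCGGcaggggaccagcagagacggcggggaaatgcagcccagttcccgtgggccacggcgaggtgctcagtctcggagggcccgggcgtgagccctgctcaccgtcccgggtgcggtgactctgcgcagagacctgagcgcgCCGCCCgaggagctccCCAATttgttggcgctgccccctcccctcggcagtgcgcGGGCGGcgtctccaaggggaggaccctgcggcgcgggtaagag
Col4a5: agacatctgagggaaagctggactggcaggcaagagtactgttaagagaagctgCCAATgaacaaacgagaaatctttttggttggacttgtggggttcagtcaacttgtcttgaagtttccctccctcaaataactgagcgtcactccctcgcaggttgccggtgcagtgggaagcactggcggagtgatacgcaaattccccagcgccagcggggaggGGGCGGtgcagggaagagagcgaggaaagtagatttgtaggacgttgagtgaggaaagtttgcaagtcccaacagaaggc
Col4a6: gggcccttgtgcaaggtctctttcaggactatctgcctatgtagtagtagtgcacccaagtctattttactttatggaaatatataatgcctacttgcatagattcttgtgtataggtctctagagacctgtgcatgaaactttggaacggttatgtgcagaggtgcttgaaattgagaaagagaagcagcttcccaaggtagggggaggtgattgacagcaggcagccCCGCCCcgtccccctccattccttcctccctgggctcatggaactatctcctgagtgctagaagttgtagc
The Col4a1 and Col4a2 windows share 78 bases, read on opposite strands. Col4a2 held 3 GC boxes and 1 CCAAT box, Col4a1 and Col4a5 held 1 of each, and Col4a6 held 1 GC box and 0 CCAAT boxes. RefSeq promoters were matched for 35 of the 44 genes, in 38 windows. A GC box was in 23 of these windows, a CCAAT box in 13 and the TATA box TATAAA, searched on both strands, in 5. Among all 32851 promoter windows of the same length the shares were 35.7%, 37.4% and 13.6%. A match describes the letters only, and whether a factor bound there was not tested.

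Levels below are normalized counts, which are read counts divided by a size factor per library, and they are listed in the order of the tumour numbers. Collagen transcripts were most abundant in Type 2 Control tumours. The 44 genes together took 1530, 4702, 12659 and 5124 reads per M in the 4 Type 2 Control libraries and 1489, 1517, 541 and 1142 in the 4 Type 2 TAM depleted libraries. In Type 1 they took 735 to 1160 reads per M in Control and 487 to 648 in TAM depleted tumours. The Type 1 groups did not overlap with each other, nor did the Type 2 groups, though Type 2 Control 1 lay close to Type 2 TAM depleted 1 and 2. The Type 1 Control libraries were all in the high set and the depleted ones all in the low set. Their median receptor gene was at 7.85 to 10.7 against 0.12 to 0.88 normalized counts per kilobase. Whether the Type 1 groups would stay apart without background was not tested. Reads per M divide by all reads of a library, and the gene Gm10800 took 58.2% of these in Type 2 Control 1. It took 13.8% in Type 2 Control 3, 25.7% and 41.3% in Type 2 TAM depleted 3 and 4, and 16.6% to 35.1% in Type 1 Control. In Type 2 TAM depleted 1 and 2 it took 0.11% and 0.05%. Reads per M of other genes are lowered to that extent. On the scale of normalized counts the Type 1 sum was 7608 ± 882 (SD, n = 5) in Control and 5042 ± 974 (SD, n = 3) in TAM depleted tumours. In Type 2 it was 44425 ± 23612 (SD, n = 4) in Control and 11710 ± 4661 (SD, n = 4) in TAM depleted tumours. On this scale too the 2 Type 2 groups did not overlap, with a lowest Control sum of 23052 and a highest TAM depleted sum of 16562. Those sums belonged to Type 2 Control 1 and TAM depleted 2, where the median receptor gene was at 27.3 and 0 normalized counts per kilobase. Background was not subtracted from any sum, and whether the Type 2 groups would stay apart without it was not tested.

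**Figure D1:**
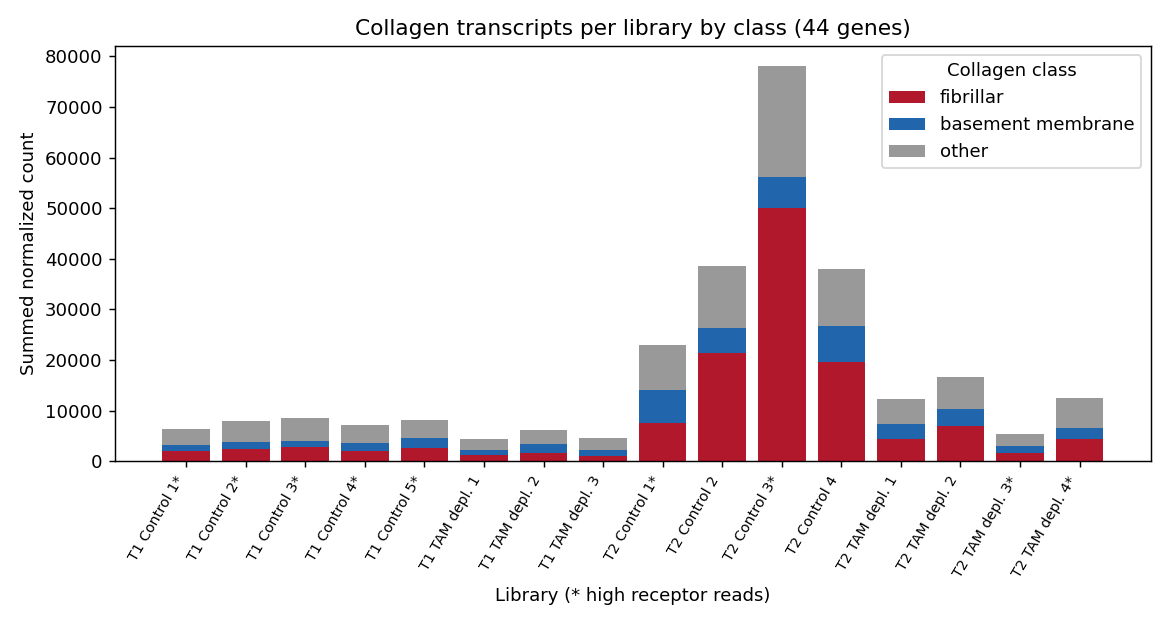
Summed normalized count of the 44 collagen genes in each of the 16 libraries (x axis), stacked by class: fibrillar (red), basement membrane (blue) and other (grey); asterisks mark the 9 libraries with high receptor reads. The 4 Type 2 Control bars, from 23052 to 78173, stand above the other 12. The fibrillar part is the largest of the 3 classes in Type 2 Control 2, 3 and 4 and in Type 2 TAM depleted 2.

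The make-up of the collagen transcripts also differed between libraries. Fibrillar genes took 33.0% (95% Wilson interval 31.8 to 34.1), 55.7% (55.3 to 56.0), 64.1% (63.8 to 64.4) and 51.5% (51.1 to 51.9) of collagen reads in the 4 Type 2 Control libraries; the intervals cover counting error only. Over the other 12 libraries the fibrillar share ran from 21.9% to 41.6%, so Type 2 Control 2, 3 and 4 stood above all of them and Type 2 Control 1 did not. Types II, IX and XI, 6 genes in all, took 15.1%, 51.9%, 57.9% and 47.6% in Type 2 Control and 12.3% to 23.9% in the other 12 libraries. One gene, Col11a1, which encodes a type XI chain that sits inside thin fibrils, took 7.54%, 27.2%, 35.3% and 22.5% of collagen reads in Type 2 Control, and it was the top collagen gene in Type 2 Control 2, 3 and 4. Basement membrane genes took 27.8%, 12.3%, 7.63% and 18.8% there, although their summed level was the steadiest of the classes in that group, at 6062 ± 988 normalized counts (SD, n = 4) against 24680 ± 18040 for fibrillar and 13682 ± 5763 for other collagens. Col4a1 was the top collagen gene in Type 2 Control 1, in Type 1 Control 1, 4 and 5, in all 3 Type 1 TAM depleted libraries and in Type 2 TAM depleted 3. Col11a1 was also the top one in Type 1 Control 2 and in Type 2 TAM depleted 1 and 4.

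How far a gene stood above background depended on the library. Per kilobase of its main transcript, a collagen gene was compared with the median receptor gene of the same library. The number of the 44 genes above 3 times that level was 20, 16, 31, 11 and 20 in the Type 1 Controls and 43, 43 and 44 in the depleted Type 1 tumours. It was 19, 42, 39 and 44 in the Type 2 Controls and 42, 44, 20 and 15 in the depleted Type 2 tumours. In Type 2 TAM depleted 2 the median receptor gene was at 0, so any gene with a read counted as above. The 44 there was thus fixed in advance and says nothing about background. Only Col4a1, Col4a2, Col11a1 and Col25a1 were above 3 times the receptor level in all 16 libraries, with Type 2 TAM depleted 2 counted in this way. Col25a1 encodes a transmembrane collagen made by neurons. In Type 1 Control tumours many collagen genes were measured near the level of genes that serve smell.

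The comparison of Type 2 Control with Type 1 Control tumours asks how collagen expression differs between the models. The test was limma-trend on log2(normalized count + 1) with Benjamini-Hochberg adjustment over 26463 genes and a threshold of 0.05. Of the 44 genes, 17 were higher and 1 was lower in Type 2 Control, where 2.28% of all genes tested were higher and 0.816% were lower. Fibrillar genes made up 5 of the 17 (of 11 tested), basement membrane genes 4 (of 6) and other collagens 8 (of 27). The median log2 fold change was 1.48 for fibrillar, 2.23 for basement membrane and 0.39 for other collagens, and -0.23 for all genes tested. Of the 44 genes, called or not, 16 had every Type 2 Control value above every Type 1 Control value (5.03% of all genes did), and 1 had every value below (1.93%). Within the high-background libraries, 5 Type 1 against 2 Type 2, 16 of the 44 passed (4% of all genes there), 14 of them among the 18 called here. In that set 41 of 44 fold changes were above 0, with a median of 1.54, where the median of all genes was 0.13. Over all 9 Control libraries 28 of 44 were above 0, as were 37.8% of all genes, whose median was -0.23.

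The fibrillar chain with the largest difference was Col11a1 (chr3:114030540-114220718, plus strand). Its normalized counts were 379, 448, 289, 415 and 480 in Type 1 Control and 1737, 10488, 27611 and 8521 in Type 2 Control tumours. The lowest Type 2 tumour was above every Type 1 tumour, and Type 2 Control 3 held over 10 times the level of Type 2 Control 1. The log2 fold change was 4.35 (SE 0.59, limma-trend adjusted p = 0.000514). Col2a1, the chain of the main cartilage collagen, had 150, 139, 224, 124 and 141 in Type 1 Control and 1029, 3530, 7953 and 656 in Type 2 Control tumours. Col2a1 lies on chr15:97975602-98004695, minus strand; its groups did not overlap either, and the log2 fold change was 3.77 (SE 0.72, limma-trend adjusted p = 0.00687). Col11a2, the partner of Col11a1 in type XI collagen, was higher by 3.47 on the log2 scale (SE 0.77, adjusted p = 0.0175), with values of 92.0 to 271 in Type 1 Control and 197, 2340, 5178 and 5665 in Type 2 Control tumours. Its groups overlapped because Type 2 Control 1 was within the Type 1 range, and with the background set as a block it was not called (2.51, adjusted p = 0.0531).

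Other fibrillar genes gave smaller or less even differences. Col3a1, the chain of type III collagen of soft connective tissue and vessel walls, had 124, 164, 126, 127 and 287 in Type 1 Control and 1255, 588, 593 and 720 in Type 2 Control tumours. Unlike the type II and XI genes, it was highest in Type 2 Control 1; its log2 fold change was 2.25 (SE 0.45, adjusted p = 0.00899). Col27a1, a minor fibrillar chain, had a log2 change of 1.48 (SE 0.37, adjusted p = 0.0346), with 171 to 285 against 332, 712, 1463 and 448.

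The type I chains, which together form the main collagen of connective tissue, did not behave alike. Col1a1 had 120, 141, 464, 116 and 321 in Type 1 Control and 340, 2908, 5083 and 1767 in Type 2 Control tumours. Type 2 Control 1 was inside the Type 1 range, and the log2 fold change of 3.13 (SE 0.83) missed the threshold at an adjusted p of 0.0512. Leaving out Type 1 Control 3 or Type 2 Control 1 took Col1a1 past it (lowest adjusted p = 0.00915). Col1a2, the partner chain, had 181, 215, 326, 148 and 399 in Type 1 Control and 611, 224, 211 and 150 in Type 2 Control tumours. The 3 Type 2 tumours with the most Col1a1 thus held Col1a2 within the Type 1 range. Col5a1, a type V chain that regulates the width of type I fibrils, had 142, 174, 242, 146 and 179 against 382, 326, 638 and 227, and its groups overlapped.

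Among the basement membrane genes, Col4a1 and Col4a2, the chains of the common type IV collagen of vessels, were higher in every Type 2 Control tumour. Col4a1 had 469, 382, 390, 608 and 823 in Type 1 Control and 2431, 2110, 2727 and 3251 in Type 2 Control tumours, a log2 change of 2.34 (SE 0.34, adjusted p = 0.00086). Col4a2 had 319, 301, 312, 398 and 496 against 1340, 1405, 1849 and 1912, a log2 change of 2.16 (SE 0.34, adjusted p = 0.00152). The spread among the 4 Type 2 Control tumours was far smaller for this pair than for the type II and XI genes. Col4a5 and Col4a6, the X-linked type IV chains, had log2 fold changes of 2.29 (SE 0.33, adjusted p = 0.000932) and 2.32 (SE 0.30, adjusted p = 0.000322). Col4a5 had 117 to 177 in Type 1 Control and 1162, 688, 498 and 802 in Type 2 Control tumours; Col4a6 had 115 to 166 against 769, 498, 584 and 957. Col4a3 and Col4a4, the type IV chains known from kidney filters, were not called and their groups overlapped.

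In the third class, fibril-associated collagens gave 5 of the 8 higher genes. Col9a1, a type IX chain that coats type II fibrils, had 125, 132, 120, 107 and 114 in Type 1 Control and 361, 1545, 3236 and 1446 in Type 2 Control tumours. Its groups did not overlap, and its log2 fold change was 3.40 (SE 0.51, adjusted p = 0.00112). The other 4 were Col20a1 (log2 fold change 3.12), Col16a1 (2.94), Col12a1 (2.43) and Col9a3 (2.31). Col20a1 had 78.5, 66.0, 180, 82.9 and 139 against 325, 596, 1603 and 2017. Col12a1, found in tendon and other dense tissue, had 237, 376, 289, 240 and 231 against 1648, 1106, 1843 and 1343. The groups did not overlap for Col20a1 or Col12a1. Col9a3 shares exon bases with Tcfl5 on the opposite strand, and its groups overlapped.

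Multiplexins, which sit at vessel basement membranes, were both higher. Col18a1, the precursor of endostatin, had 152, 169, 185, 118 and 191 in Type 1 Control and 511, 1403, 1745 and 650 in Type 2 Control tumours, a log2 change of 2.56 (SE 0.52, adjusted p = 0.0103). Col15a1 had 111, 145, 121, 172 and 155 against 722, 524, 715 and 424, a log2 change of 2.06 (SE 0.45, adjusted p = 0.0160). Neither gene's groups overlapped.

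Of the type VI chains, which form beaded filaments around cells, Col6a1 passed the test. It had 105, 165, 526, 82.9 and 103 in Type 1 Control and 479, 1226, 3503 and 959 in Type 2 Control tumours, a log2 change of 2.96 (SE 0.68, adjusted p = 0.0226). The groups overlapped through Type 1 Control 3, which held more than Type 2 Control 1. Col6a2 had 125, 145, 190, 66.3 and 63.2 against 257, 633, 1970 and 152, and Col6a3 had 128, 158, 165, 146 and 191 against 540, 744, 655 and 269. The 1 lower gene was Col23a1, a transmembrane collagen, at 184, 214, 235, 223 and 348 in Type 1 Control and 39.3, 131, 118 and 86.1 in Type 2 Control tumours (log2 fold change -1.45, SE 0.36, adjusted p = 0.0322). Every Type 2 Control tumour was below every Type 1 Control tumour.

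**Figure D2:**
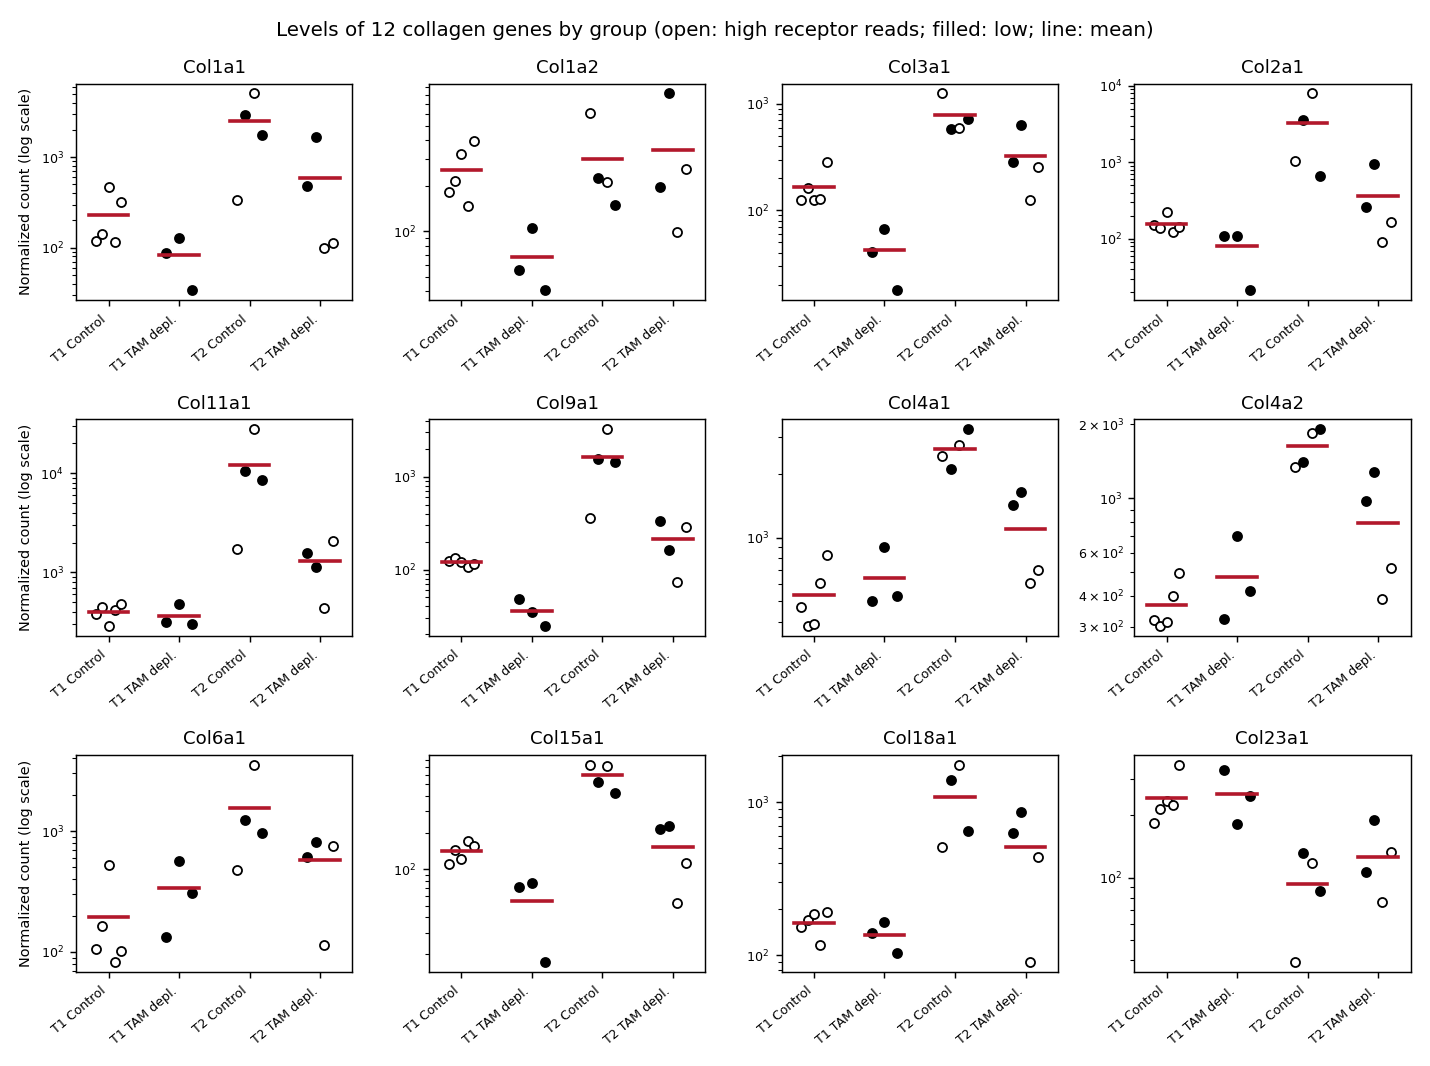
Normalized counts (y axis, log scale) of 12 collagen genes in the 4 groups, 1 point per library, with open points for libraries with high receptor reads, filled points for low ones, and a red line at the group mean. Type 2 Control points of Col3a1, Col11a1, Col2a1, Col9a1, Col4a1, Col4a2, Col15a1 and Col18a1 lie above all 5 Type 1 Control points, and those of Col23a1 below them.

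With the background set as a block, 14 of the 18 genes kept their call; Col6a1 (adjusted p = 0.0508), Col9a3 (0.0508), Col11a2 (0.0531) and Col27a1 (0.0720) lost it. The same 4 were not called in the high-background libraries alone, at 0.0589, 0.168, 0.124 and 0.0746. Some of the calls rested on single libraries. Of the 18 genes, 12 kept an adjusted p under 0.05 whichever of the 9 Control libraries was left out. Col15a1 lost its call without Type 2 Control 3 (adjusted p = 0.0595), Col9a3 without Type 2 Control 3 or 4 (up to 0.0676), and Col11a2 without Type 1 Control 4 or Type 2 Control 3 or 4 (up to 0.0795). Col6a1 kept its call in 4 of 9 such fits, losing it without Type 1 Control 1, 4 or 5 or Type 2 Control 2 or 3 (up to 0.0967). Col27a1 and Col23a1 each kept theirs in 3 of 9. Col27a1 lost it without Type 1 Control 1, 2, 4 or 5 or Type 2 Control 2 or 3 (up to 0.115), and Col23a1 without Type 1 Control 2, 3, 4 or 5 or Type 2 Control 1 or 4 (up to 0.0904).

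Cell type markers moved with this comparison as well, where 2.28% of all genes tested were higher and 0.816% lower. Of 10 oligodendrocyte precursor markers 4 were higher in Type 2 Control (median log2 fold change 2.34), as were 4 of 12 cartilage markers (0.58), and 3 of 12 neuron markers were lower (-2.24). Of 10 mature oligodendrocyte markers 2 were higher, Cldn11 by 2.80 and Cnp by 2.11 (list median 0.19), and of 10 astrocyte markers 1 was, S100b by 2.71 (list median -0.39). The called cartilage markers included Acan (4.76) and Hapln1 (4.57), matrix genes that brain tissue also makes, and Sox6 (3.29). Of the 12 cartilage markers, called or not, 8 had log2 fold changes above 0 and 4 below. None passed of the 11 fibroblast (median 0.01), 11 mural cell (0.45), 12 endothelial (0.37) or 20 TAM markers (1.19, all 20 above 0). In the high-background libraries alone the medians of these 4 lists were 0.23, 0.34, 0.37 and 0.68. There, 0 fibroblast, 2 mural cell, 2 endothelial and 0 TAM markers were below 0. No marker in these lists had 3 or fewer reads in most libraries. In bulk RNA, more cells of a type and more RNA per cell cannot be told apart, and the part of these cells in the collagen differences was not tested.

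TAM depletion in Type 2 was then compared with Type 2 Control. Of the 44 collagen genes 10 fell and 0 rose, where 1.24% of all genes tested fell and 2.37% rose. The 10 were 3 of 11 fibrillar genes (Col2a1, Col11a1 and Col27a1), 3 of 6 basement membrane genes (Col4a1, Col4a5 and Col4a6) and 4 of 27 other collagens (Col6a3, Col9a1, Col9a3 and Col15a1). All 11 fibrillar, all 6 basement membrane and 23 of 27 other genes had log2 fold changes below 0, as did 59.4% of all genes tested. The class medians were -1.47, -1.44 and -1.30, against -0.21 for all genes. This comparison shares the Type 2 Control tumours with the one above, so high values in those tumours enter both.

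Among the 10 called genes, 4 cartilage-type fibril genes had the largest fold changes. Col11a1 had 1737, 10488, 27611 and 8521 in Control and 1586, 1126, 443 and 2090 in TAM depleted tumours. Control 1 lay among the depleted tumours and the other 3 Controls far above them. The log2 fold change was -2.83 (SE 0.62, limma-trend adjusted p = 0.0233). Col2a1 had 1029, 3530, 7953 and 656 against 257, 942, 90.6 and 167, and fell by 3.08 on the log2 scale (SE 0.76, adjusted p = 0.0359). Its groups overlapped through Control 4 and TAM depleted 2. Col9a1 had 361, 1545, 3236 and 1446 against 330, 163, 73.3 and 285, and fell by 2.79 (SE 0.54, adjusted p = 0.0154). The groups of Col9a1 did not overlap, though Control 1 and TAM depleted 1 were close. Col9a3, a further type IX chain, fell by 2.20 (SE 0.53, adjusted p = 0.0325), with 129, 594, 912 and 1635 against 147, 152, 136 and 82.0.

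The called basement membrane genes had smaller fold changes, and their groups did not overlap. Col4a1 had 2431, 2110, 2727 and 3251 in Control and 1423, 1650, 610 and 703 in TAM depleted tumours, a log2 change of -1.37 (SE 0.36, adjusted p = 0.0432). Col4a2 had 1340, 1405, 1849 and 1912 against 978, 1283, 388 and 520; its log2 fold change was -1.18 (SE 0.36) at an adjusted p of 0.0760. Neither gene's groups overlapped, though Col4a2 was not called. The low-background depleted tumours 1 and 2 held the higher values for both genes, and the high-background tumours 3 and 4 the lower ones. Col4a6 had 769, 498, 584 and 957 against 222, 215, 140 and 262, and fell by 1.73 (SE 0.31, adjusted p = 0.0122), the smallest p among the 44. Col4a5 had 1162, 688, 498 and 802 against 303, 271, 145 and 415, and fell by 1.50 (SE 0.35, adjusted p = 0.0297). For both genes every depleted tumour was below every Control.

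Among the remaining called genes, Col15a1 had 722, 524, 715 and 424 in Control and 213, 228, 52.9 and 113 in TAM depleted tumours, a log2 change of -2.15 (SE 0.47, adjusted p = 0.0237). Col6a3, the long type VI chain, had 540, 744, 655 and 269 against 97.8, 228, 98.2 and 90.1, a log2 change of -2.11 (SE 0.53, adjusted p = 0.0378). The groups did not overlap for either gene. Col27a1 had 332, 712, 1463 and 448 against 338, 270, 141 and 202, a log2 change of -1.47 (SE 0.39, adjusted p = 0.0454), and its groups overlapped. In all, 8 of the 44 genes had every depleted tumour below every Control (3.39% of all genes did): the 6 named for this (Col4a1, Col4a5, Col4a6, Col6a3, Col9a1 and Col15a1), Col4a2 and Col12a1.

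Several abundant collagens were not called. Col11a2, with the second highest mean of the 44 genes in Type 2 Control, had 197, 2340, 5178 and 5665 there and 559, 582, 123 and 170 in TAM depleted tumours. Its groups overlapped through Control 1, and the log2 fold change was -2.73 (SE 0.81, adjusted p = 0.0704). Col1a1 had 340, 2908, 5083 and 1767 in Control and 485, 1663, 99.2 and 113 in TAM depleted tumours, a log2 change of -2.48 with an SE of 0.88 (adjusted p = 0.132). Col1a2 had 611, 224, 211 and 150 against 197, 817, 99.2 and 259, with the highest value in a depleted tumour. Col3a1 had 1255, 588, 593 and 720 against 287, 632, 125 and 257. Only TAM depleted 2 reached the Control range of Col3a1. Col6a1 had 479, 1226, 3503 and 959 against 612, 811, 114 and 752 (log2 fold change -1.38, SE 0.72, adjusted p = 0.332), and Col6a2 had 257, 633, 1970 and 152 against 227, 368, 58.2 and 321. Col5a1 had 382, 326, 638 and 227 against 269, 410, 110 and 310. Col12a1 had 1648, 1106, 1843 and 1343 against 665, 625, 189 and 844, with groups apart but no call. Col18a1 had 511, 1403, 1745 and 650 against 633, 869, 90.6 and 438, and Col20a1 had 325, 596, 1603 and 2017 against 170, 630, 49.6 and 357; both overlapped. The 4 genes with log2 fold changes above 0 were Col19a1, Col23a1, Col25a1 and Col26a1, chosen for mention after their values were seen; none was called.

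**Figure D3:**
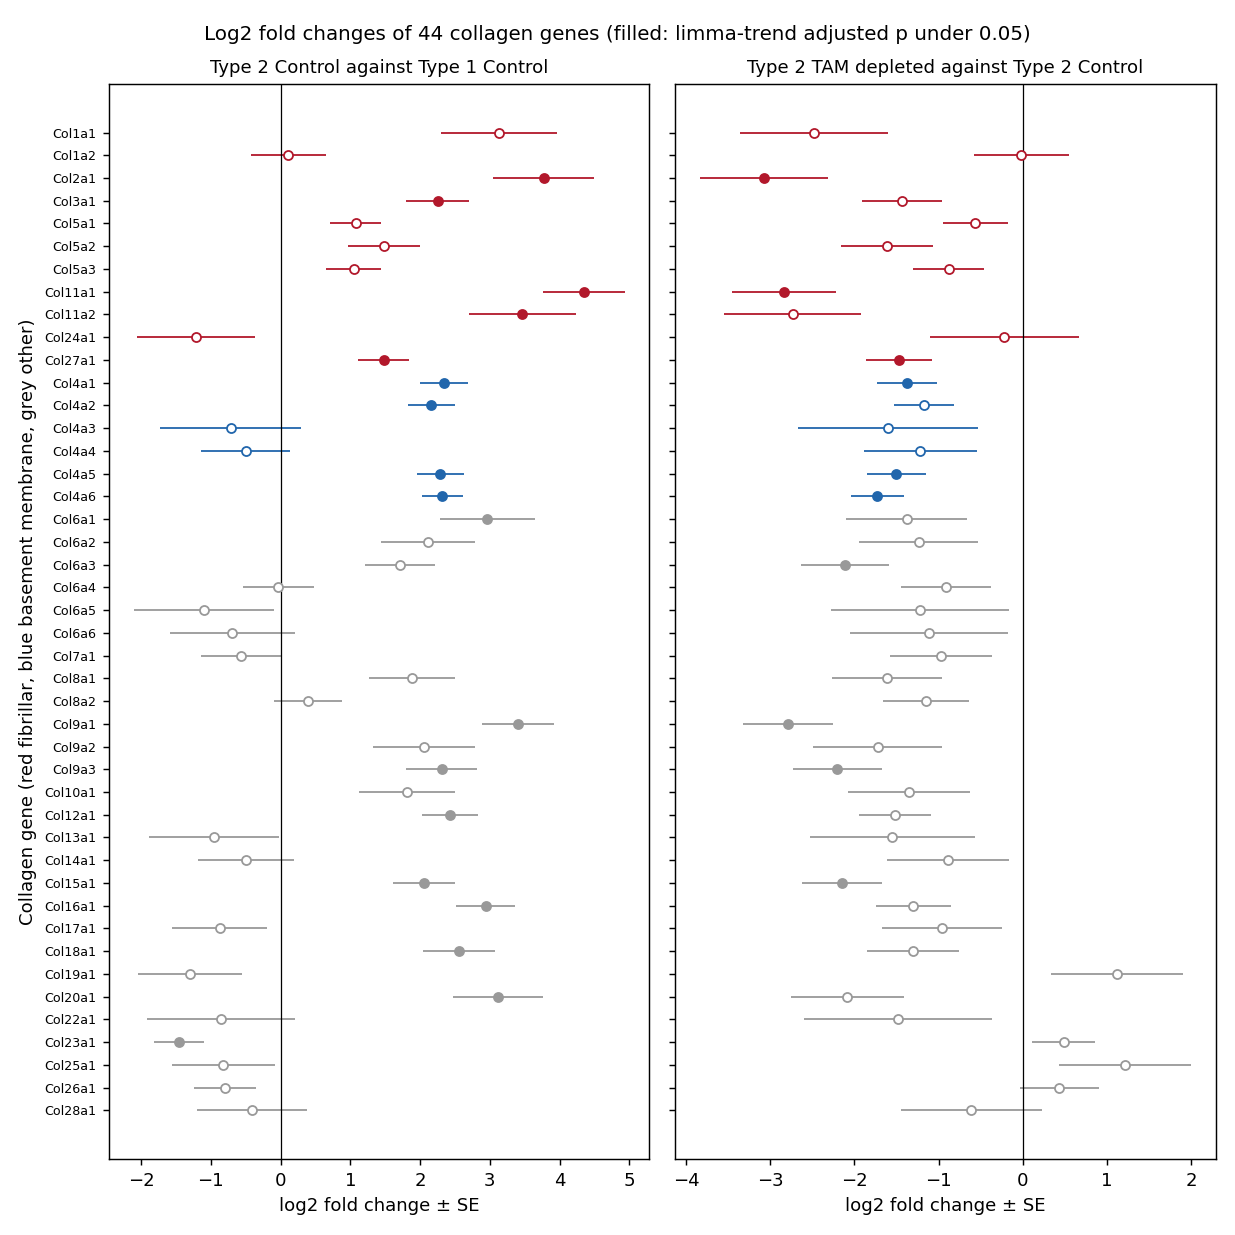
Log2 fold changes (x axis) with their standard errors for the 44 collagen genes (y axis), Type 2 Control against Type 1 Control on the left and Type 2 TAM depleted against Type 2 Control on the right; red is fibrillar, blue basement membrane, grey other, and filled points passed an adjusted p of 0.05. On the left 17 filled points lie above 0 and 1 below, and on the right all 10 filled points lie below 0.

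The background sets could be compared separately in Type 2, with 2 Control and 2 TAM depleted libraries in each. In the high-background set 42 of 44 fold changes were below 0, with a median of -1.71, and 8 genes passed (2.17% of all genes), 5 of them among the 10 called over all libraries. The other 5 of the 10, Col4a5, Col9a1, Col9a3, Col11a1 and Col27a1, did not pass there (adjusted p 0.0783 for Col9a1 to 0.221 for Col9a3). In the low-background set 35 of 44 were below 0, with a median of -1.06, and 0 passed, as did 0% of the 21708 genes tested there (limma-trend; 11 of the 44 had an unadjusted p under 0.05). The median of all genes was -0.20 in the high and -0.06 in the low set. Col11a1 was -2.85 in the high and -2.82 in the low set, Col9a1 -2.89 and -2.68, and Col4a6 -1.80 and -1.66. Col2a1 was -4.53 and -1.63, Col15a1 -3.20 and -1.09, and Col4a1 -1.97 and -0.77. The first 3 genes thus gave nearly the same fold change in both sets and the last 3 a larger one in the high set. Of the rest of the 10, Col6a3 was -2.65 and -1.57, Col27a1 -2.04 and -0.90, and Col4a5 -1.63 and -1.37. Col9a3 went the other way, at -1.69 in the high and -2.71 in the low set, as did Col9a2 and Col4a3, which were not called. The difference between sets was not tested.

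**Figure D4:**
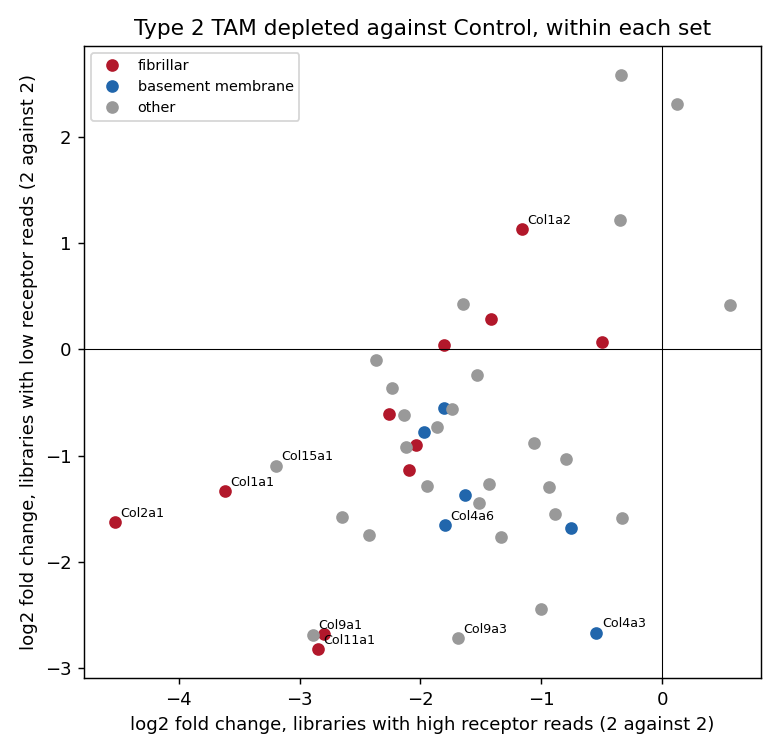
Log2 fold change of each collagen gene, Type 2 TAM depleted against Control, in the 2 against 2 libraries with high receptor reads (x axis) and in the 2 against 2 with low receptor reads (y axis), coloured by class. Of the 44 points, 42 lie left of 0 on the x axis and 35 lie below 0 on the y axis.

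The count of 10 depended on single libraries. Leaving out Type 2 Control 3, the tumour with the most collagen, kept 1 of the 10, Col4a6. Leaving out TAM depleted 1, 2, 3 or 4 kept 4, 6, 5 and 5 of the 10, and leaving out Control 1, 2 or 4 kept 6, 7 and 7. Genes outside the 10 brought the calls to 6 without TAM depleted 4, 8 without Control 1 and 8 without Control 2. Col4a6 passed in all 8 such fits (adjusted p 0.00828 to 0.0415), Col9a1 in 7 (0.0597 without Control 3), and Col11a1 and Col15a1 in 6 each. Col11a1 lost its call without Control 3 or TAM depleted 2 (up to 0.0778) and Col15a1 without Control 1 or 3 (up to 0.0821). Col2a1 and Col9a3 passed in 3 of the 8 fits, and Col4a1, Col4a5, Col6a3 and Col27a1 in 2. Fitted on the 8 Type 2 libraries alone, limma-trend called 0 collagen genes and 0% of all genes, with 19 of the 44 at an unadjusted p under 0.05.

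Marker lists moved in this comparison too, where 2.37% of all genes tested rose and 1.24% fell. Neuron markers rose in 7 of 12 cases (median log2 fold change 3.60), and their summed level ran from 3006 to 14698 normalized counts in Control and from 22834 to 116732 in TAM depleted tumours, without overlap. Of the astrocyte markers 1 of 10 rose (median 1.24). Mature oligodendrocyte markers were above 0 in 10 of 10 cases, with 0 called (median 1.12). Of 10 oligodendrocyte precursor markers 1 fell, Sox10, by 2.01 on the log2 scale (adjusted p = 0.0424); the list median was -0.26 over all libraries, 0.47 in the high-background and -1.03 in the low-background set, where all 10 were below 0. Of the cartilage markers 2 of 12 fell, Acan by 3.47 and Hapln1 by 2.96 on the log2 scale. The median of that list was -1.20, with 10 markers below 0 and 2 above. None passed of the fibroblast (median -0.69), mural cell (-0.53) or endothelial markers (-0.18). Summed endothelial marker levels were 2123 to 3296 in Control and 1724 to 2483 in TAM depleted tumours. Their part in the fall of collagen genes was not tested.

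Chains that assemble with each other could be compared per kilobase of transcript. The ratio of Col4a1 to Col4a2 stayed between 1.22 and 1.77 in all 16 libraries. Reads in the few bases these genes share cannot be assigned by strand, since the library kit does not mark it. The ratio of Col4a5 to Col4a6 ran from 0.85 to 2.56. The ratio of Col1a1 to Col1a2, whose chains join as 2 to 1 in type I collagen, was 0.50, 11.7, 21.7 and 10.7 in Type 2 Control and 2.22, 1.83, 0.90 and 0.39 in Type 2 TAM depleted tumours. In the 8 Type 1 libraries it lay between 0.59 and 1.41. Type 2 Control 2, 3 and 4 were therefore far above the other 13 libraries in this ratio, and the only library below Type 2 Control 1 was Type 2 TAM depleted 4. These are the tumours that also had the largest share of types II, IX and XI.

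**Figure D5:**
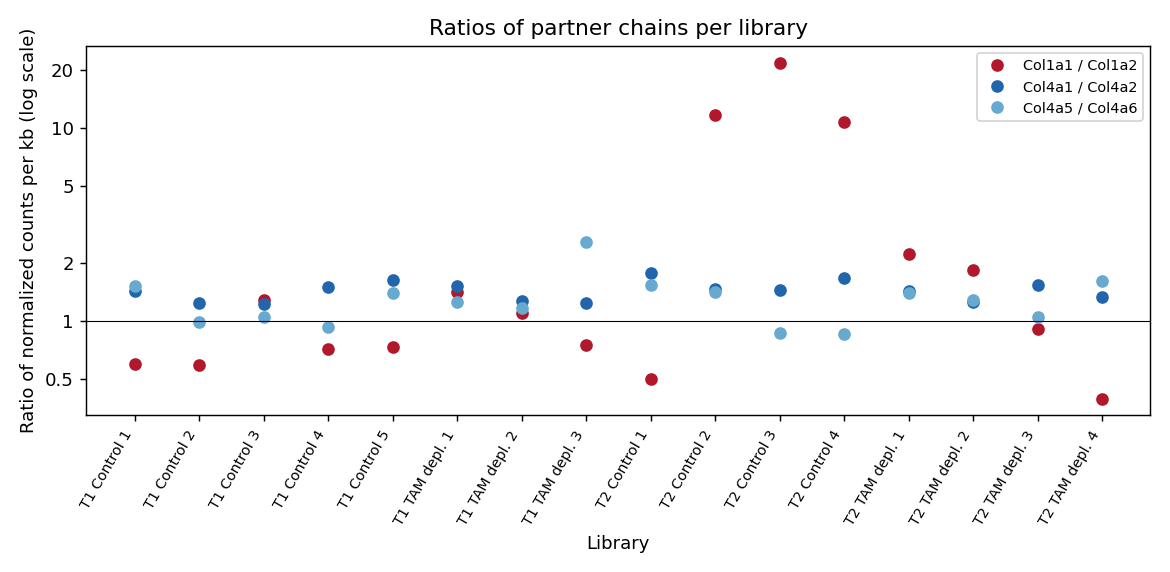
Ratio of normalized counts per kilobase (y axis, log scale) of Col1a1 to Col1a2 (red), Col4a1 to Col4a2 (dark blue) and Col4a5 to Col4a6 (light blue) in each library (x axis). The dark blue points stay between 1.22 and 1.77, while the red points of Type 2 Control 2, 3 and 4 reach 11.7, 21.7 and 10.7.

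TAM depletion in Type 1 called 0 of the 44 collagen genes, and 0% of all genes tested. At an unadjusted p under 0.05 there were 20 of the 44 and 8019 of all genes, and limma-voom on the recovered reads also called 0. Of the 44 fold changes 38 were below 0 (51.5% of all genes), with medians of -1.25 for fibrillar, -0.90 for basement membrane and -1.30 for other collagens, against -0.06 for all genes. The TAM depleted tumours were all below the Controls for 20 of the 44 genes, and so they were for 28.6% of all genes. The smallest p in each class belonged to Col3a1 (log2 fold change -2.06, SE 0.49), Col4a6 (-1.11, SE 0.32) and Col6a4 (-2.07, SE 0.56), each with an adjusted p of 0.103. With the background set as a block, whose size is estimated in the Type 2 libraries, 0 genes passed, the median of the 44 moved from -1.22 to -0.59, and 12 were above 0. Of the 44, 14 changed sign, 10 to above 0 and 4 to below. Col6a4 moved to -0.43, Col4a3 from -2.80 to 0.81 and Col22a1 from -3.04 to 0.60, while Col3a1 was at -2.48 and Col4a6 at -1.22. Col3a1 had 124, 164, 126, 127 and 287 in Control and 41.0, 67.2 and 17.8 in TAM depleted tumours, with no overlap.

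The 5 collagens with the highest means in Type 1 Control, Col4a1, Col11a1, Col4a2, Col12a1 and Col25a1, had overlapping groups. Col4a1 had 469, 382, 390, 608 and 823 in Control and 500, 901 and 528 in TAM depleted tumours (log2 fold change 0.28, SE 0.37, adjusted p = 0.593). Col4a2 had 319, 301, 312, 398 and 496 against 321, 699 and 418 (0.34, SE 0.37, adjusted p = 0.509). The direction of both turned with the scaling, to -0.12 and -0.05 under upper quartile and -0.27 and -0.13 under quantile scaling, and to -0.35 each with the background block. Col11a1 had 379, 448, 289, 415 and 480 against 314, 479 and 305, with full overlap. Col12a1 had 237, 376, 289, 240 and 231 against 139, 264 and 473, and Col25a1 had 177, 363, 329, 259 and 170 against 87.0, 31.5 and 362. Among less abundant genes whose groups also overlapped, Col1a1 had 120, 141, 464, 116 and 321 against 87.0, 126 and 33.8 (-1.43, SE 0.91, adjusted p = 0.274). Col6a1 had 105, 165, 526, 82.9 and 103 against 133, 563 and 309 (0.91, SE 0.74, adjusted p = 0.386).

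Other Type 1 members sat lower in the depleted tumours. Col1a2 had 181, 215, 326, 148 and 399 in Control and 55.6, 105 and 40.7 in TAM depleted tumours. Col9a1 had 125, 132, 120, 107 and 114 against 48.3, 34.5 and 24.6, and Col15a1 had 111, 145, 121, 172 and 155 against 71.3, 76.2 and 17.2. None of these 3 genes had overlapping groups, yet none passed the test. Receptor genes had a median of 7.85 to 10.7 normalized counts per kilobase in the Controls and 0.12 to 0.88 in the depleted tumours, where Col9a1 averaged 31.2 and 9.34 and Col1a2 averaged 47.4 and 12.5. For these genes the background set and the treatment cannot be told apart. Of the marker lists, 0 genes passed here; the fibroblast median was -1.31, the cartilage median -1.22, the mural cell median 0.21 and the endothelial median 0.05. Medians were 0.71 for astrocyte, 0.51 for oligodendrocyte precursor, -0.28 for mature oligodendrocyte and 0.15 for neuron markers. Fitted on the 8 Type 1 libraries alone, 19 collagen genes were lower at an adjusted p under 0.05, as part of 9375 genes called (35.4% of all tested).

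The TAM depleted tumours of the 2 models were also compared. Col3a1 passed, 1 of the 44, where 0.0567% of all genes tested were higher in Type 2. It had 41.0, 67.2 and 17.8 in Type 1 and 287, 632, 125 and 257 in Type 2 TAM depleted tumours, without overlap (log2 fold change 2.88, SE 0.51, limma-trend adjusted p = 0.0246). Leaving out Type 1 TAM depleted 1 or Type 2 TAM depleted 1, 2 or 4 ended this call (up to 0.150). Of the 44 fold changes 40 were above 0 (55.8% of all genes), with a median of 1.12 against 0.11 for all genes, and 7 genes had groups apart (3.3% of all genes). Col4a6, with the smallest p among basement membrane genes, had 45.5, 106 and 49.8 against 222, 215, 140 and 262 (1.70, SE 0.34, adjusted p = 0.0540). It passed without Type 1 TAM depleted 2 or Type 2 TAM depleted 3 (lowest adjusted p = 0.0348). Col9a1 led the other collagens at 48.3, 34.5 and 24.6 against 330, 163, 73.3 and 285 (2.37, SE 0.58, adjusted p = 0.124). Col1a1 (2.08, SE 0.95), Col4a1 (0.69, SE 0.39), Col4a2 (0.64, SE 0.39) and Col6a1 (0.67, SE 0.78) had adjusted p-values of 0.392, 0.489, 0.519 and 0.741. Of 11 fibroblast markers 1, Lum, was higher in Type 2 (2.62, SE 0.45, limma-trend adjusted p = 0.0221). Lum averaged 4.79 normalized counts in Type 1 and 37.4 in Type 2. No marker of the other cell types passed. List medians were 0.22 (fibroblast), 0.09 (mural cell), 0.11 (endothelial), 0.95 (cartilage) and 0.28 (TAM). They were 1.84 (neuron), 0.81 (astrocyte), 1.92 (oligodendrocyte precursor) and 2.57 (mature oligodendrocyte). The part of these cells was not tested.

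The difference between the depletion responses of the 2 models was tested as an interaction in the same fit. It called 0 of the 44 genes and 0% of all genes (10 of the 44 and 2666 of all genes at an unadjusted p under 0.05; limma-voom also called 0). So although 10 collagen genes passed in Type 2 and 0 in Type 1, a different response of any of them was not shown. The smallest p in each class belonged to Col11a1 (-2.69, SE 0.89, adjusted p = 0.462), Col4a1 (-1.65, SE 0.51, adjusted p = 0.462) and Col9a3 (-2.11, SE 0.76, adjusted p = 0.470), where the value is the Type 2 minus the Type 1 log2 fold change. Col4a2 was at -1.52 (SE 0.51, adjusted p = 0.462), Col6a1 at -2.29 (SE 1.04, adjusted p = 0.491) and Col1a1 at -1.04 (SE 1.26, adjusted p = 0.711). The median over the 44 was -0.53, against 0.16 for all genes.

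Genes that build, secrete and bind collagen were followed as 2 lists. Of 33 genes for collagen modification and secretion, 13 were higher and 0 lower in Type 2 Control against Type 1 Control, with a median log2 fold change of 1.16. Of all genes tested, 2.28% were higher and 0.816% lower, with a median of -0.23. The 13 included Serpinh1, the collagen chaperone HSP47 (3.66), Fkbp10, a prolyl isomerase of procollagen folding (2.97), and Pcolce, an enhancer of procollagen cleavage (2.91). Serpinh1 averaged 163 ± 70.8 normalized counts (SD, n = 5) in Type 1 Control and 2109 ± 1117 (SD, n = 4) in Type 2 Control tumours. In Type 2 TAM depleted tumours 7 of the 33 fell and 0 rose (median -0.91), where 1.24% of all genes fell and 2.37% rose (median -0.21). Serpinh1 fell to 422 ± 286 (SD, n = 4; log2 fold change -2.46), Loxl2, a lysyl oxidase that crosslinks collagen, fell by 2.31, and Fkbp10 by 2.13. In Type 1 0 of the 33 passed (median 0.05), while the 44 collagens themselves had a median of -1.22.

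Of 10 collagen receptors, 3 were higher in Type 2 Control than in Type 1 Control: Itga1 (2.03), the alpha chain of a collagen-binding integrin, Itgb1 (1.73), its beta chain, and Lair1 (1.27), an inhibitory collagen receptor of immune cells. In Type 2 TAM depleted tumours Itga1 fell by 2.09 on the log2 scale (SE 0.33, adjusted p = 0.00917) and Lair1 by 1.22 (SE 0.28, adjusted p = 0.0292). Itga1 averaged 1274 ± 558 in Type 2 Control and 285 ± 84.6 in Type 2 TAM depleted tumours (SD, n = 4 each). For scale, 2.28% of all genes tested were higher between the Controls and 1.24% fell in Type 2 TAM depleted tumours. No collagen receptor passed in Type 1, where the median was -0.48.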

How the data were processed

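Bulk RNA-seq of 16 tumours was used, grouped by the sample titles. Per the labels' protocols, TRIzol and miRNeasy Micro extraction was followed by SMART-Seq v4 library preparation, which does not mark strand. Per the submitters' processing notes, STAR 2.7.8a, GRCm38 and DESeq2 were used; the counting tool and annotation were not given in the sources used here. Values of the table that the authors deposited are variance-stabilized and on a log2 scale, with a floor of 3.74 shared by all columns. Each value v was turned into a normalized count: 2 was raised to v/2, 2 raised to (floor - v/2) was subtracted, and the result was squared. All values (100%) came out as whole reads per library (tolerance 0.05 reads). The planned test assumed normalized counts, and the inverted values were used for it. Deposited tables of single models were not used here.

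Genes at 10 or more normalized counts in at least 3 libraries were tested (26463) with limma-trend (limma 3.58.1, R 4.3.3) on log2(normalized count + 1), in 1 fit of 4 group means over 16 libraries (12 residual degrees of freedom). The 2-sided p-values were adjusted by Benjamini-Hochberg over all genes. The fold change of low genes is understated by the pseudocount. Libraries with over 2500 receptor reads per M were called high-background. Lengths and shared exon bases came from GENCODE gene models of GRCm38. 13 of the 44 genes share exon bases with another gene, such as Col4a1 with Col4a2, Col9a3 with Tcfl5 and Col10a1 with Nt5dc1, and their values are uncertain to that extent. Any 2 libraries of a group differed by more than sampling noise (chi-square per degree of freedom at least 9.02), so each counted once.

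Named were all collagen genes past the threshold, Col1a1, Col4a1, Col4a2 and Col6a1 in every comparison, the smallest p of each class, and a set list of 12 others by level. The members and lists were chosen with earlier results of these data known. The fit was also run on simulated counts with known fold changes. These held no high- and low-background sets, so they cannot show how the fit behaves with such sets. The alternatives tried were a pseudocount of 0.5 or 8, a filter of 50 or none, upper quartile and quantile scaling, limma-voom on recovered reads, a replicate block, the background set as a block or separately, leaving out each library, and a fit on 2 groups alone, which was chosen after seeing the data.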

Additional observations from a re-analysis of the deposited data

Results flagged for a closer look

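For 24 collagen genes, each group of 4 or 5 libraries was checked for a library that stands apart from the others by most of the group's range; of 72 groups, 2 had one. Chance flags about 1 in 20 groups. Both were in Type 2 TAM depleted tumours. Col6a1 was at 114 normalized counts in TAM depleted 3, against 612 to 811 in the other 3. Col6a3 was at 228 in TAM depleted 2, against 90.1 to 98.2 in the other 3.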

How the results depend on the processing

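The number of collagen genes called was compared over all alternatives. In Type 2, TAM depleted against Control, it was 10 and became 17 under quantile scaling, 17 with the background set as a block, 0 in the low-background libraries alone and 0 in the 2 groups alone; the 10 were among both sets of 17. Leaving out 1 library gave 1 to 8. Between TAM depleted tumours, 1 became 2 with a filter of 50, 2 with limma-voom, 2 with the background block, 0 under quantile scaling, 0 in low-background libraries, 0 in the 2 groups alone, and 0 to 2 without 1 library; where it was 2, these were Col3a1 and Col4a6. In Type 1, 0 became 19 in the 2 groups alone, with 9375 genes called in all. Between Controls, 18 stayed within 1.5 times that count, at 13 to 20 without 1 library. The cause of these shifts was not tested.

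Replicate numbers did not pair the libraries: the correlations of same-numbered deviations were -0.67 to 0.50, with 4 of 14 above 0.1, and 0 of 4 Type 2 Control libraries correlated best with their own number. With the replicate block, 2 collagen genes passed in Type 2, Col4a6 and Col15a1. Of the named genes refitted under every alternative, signs turned in Type 1 for Col4a1 (-0.12 under upper quartile scaling, -0.27 under quantile scaling, -0.35 with the background block) and Col4a2 (-0.0541, -0.13 and -0.35), and for Col1a1 in the difference of responses (0.88 with the background block). Over all 44 genes the background block turned 14 signs in Type 1, where it cannot be told apart from the treatment within the model, 12 between Controls (all to above 0), 9 between TAM depleted tumours (all to below 0), 16 in the difference of responses and 0 in Type 2. Upper quartile scaling moved the median of all genes from -0.06 to -0.44 in Type 1, from -0.21 to -0.41 in Type 2 and from -0.23 to -0.34 between Controls.

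Depth limits the low members most, and the lowest value of any member in any library was 3 reads. Groups of 3 to 5 libraries and a wide spread in Type 2 Control limit every test.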
